A study of Mus musculus with 21 samples.

Results

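The 40 mouse genes described here encode the machinery that builds the mitotic spindle, checks and separates the chromosomes, and divides the cell. They were chosen by gene symbol as a mitosis and cytokinesis module, at a time when earlier results of these data were known. All 40 were among the 35550 genes measured in the mouse macrophage-like line RAW264.7, and 3 of the 40 were among the 5298 genes listed for mouse liver. For description they were divided by role into 7 sets, namely mitotic kinases, cyclins and their activators (10 genes), the spindle checkpoint and anaphase trigger (5), the centromere and kinetochore (5), the chromosomal passenger complex (4), spindle assembly and motors (7), the central spindle and cytokinesis (7), and chromosome structure with a proliferation marker (2).

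Entry into mitosis is driven by the kinase Cdk1 with its cyclins, which are switched on by Cdc25 phosphatases and helped by the Polo-like and Aurora kinases. Most genes of this machinery are transcribed late in the cell cycle, when the factors B-Myb and FoxM1 act with the MuvB complex at CHR and CCAAT elements close to the start site. In resting or p21-arrested cells the DREAM complex, which also contains MuvB, holds the same genes down. Activation of macrophages by bacterial products is known to slow their division, so the level of these mRNAs in a macrophage line is a common readout of its proliferative state.

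RNA sequencing of RAW264.7 cells was analysed for 2 separate experiments, each group having 2 libraries. At 24 h, WT cells had received LPS at 1 µg/mL together with CTM at 0.5 mM, LPS at 1 µg/mL alone, or PBS. At 12 h, cells without vimentin (Vim-KO) had received LPS at 1 µg/mL or PBS, and so had WT cells. The liver part had 7 groups of 1 library, all C57BL/6J mice injected intraperitoneally. These were TG2-KO mice with LPS (30 mg/kg) or PBS, and WT mice with LPS (30 mg/kg) plus CTM (100 mg/kg), LPS (30 mg/kg) or PBS. The others were WT mice with LPS after liver macrophage depletion or without it, for which no LPS dose is given. LPS (lipopolysaccharide) comes from the wall of Gram-negative bacteria, and CTM is named as in the labels. Neither the ages of the mice nor the making of the Vim-KO line (its guide, and whether it is 1 clone) is given in the sources used here.

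Values are transcript levels in TPM, a length-corrected share of each library, and the depth of the libraries is unknown because TPM hold no read counts. Changes are on the scale of log2(TPM + 1), with the SE and an adjusted p from limma fitted over every gene averaging 1 TPM or more (11030 genes at 24 h and 11115 at 12 h), and a gene is called at an adjusted p under 0.05. Nothing in the labels tells if paired libraries were grown as separate cultures, and the p-values therefore rest on a spread between libraries that may be technical. Vim stood at 30.8 and 32.95 TPM in Vim-KO cells with LPS and 16.99 and 18.7 TPM in Vim-KO cells with PBS, against 1375 and 1461 TPM in WT cells with LPS and 1930.1 and 1877 TPM in WT cells with PBS, as their labels say. All 10 macrophage markers of a fixed list were at 1 TPM or more in each RAW264.7 library, whereas the hepatocyte, lymphocyte, fibroblast and erythroid lists summed to at most 1.06 TPM, the Kupffer cell list to at most 3.43 TPM and the endothelial list to at most 2.78 TPM. The neutrophil list summed to at most 9.95 TPM in all libraries other than those of 12 h with LPS, which are given beside the genotype results. Within a group the SD of the log2 difference between the 2 libraries was 0.0705 to 0.176 over the 40 genes.

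The members share promoter letters as well as function. RefSeq windows of 300 bases (GRCm38.p6, 250 before to 50 after the start) were at hand for 32 of the 40 genes. The CHR hexamer TTTGAA, read on both strands, was in 24 of these 32 windows (75%), against 18.1% of the windows of all 27025 genes. Within 50 bases of the start it was in 21 of 32 (65.6%), against 4.92% of all genes. The pentamer CCAAT, also read on both strands, was in 24 of 32 (75%), against 37.9% of all genes, and it stood there at least 2 times in 46.9%, against 12.2%. Both motifs, which can share an end letter where they abut, were in 20 of 32 (62.5%), against 7.12% of all genes. A match describes letters only and not bound sites. The promoters printed below were picked because they carry both motifs and belong to the most highly expressed members of 5 sets, with TTTGAA and CCAAT or their reverse complements TTCAAA and ATTGG in capitals, 5′ to 3′ on the strand of the gene.
Top2a: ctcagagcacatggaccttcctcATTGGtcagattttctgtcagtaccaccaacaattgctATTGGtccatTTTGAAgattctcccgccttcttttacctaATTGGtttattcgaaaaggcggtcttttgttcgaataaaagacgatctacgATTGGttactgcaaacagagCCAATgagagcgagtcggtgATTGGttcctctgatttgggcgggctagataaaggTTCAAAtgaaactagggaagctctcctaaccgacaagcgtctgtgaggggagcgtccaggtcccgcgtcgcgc
Cenpa: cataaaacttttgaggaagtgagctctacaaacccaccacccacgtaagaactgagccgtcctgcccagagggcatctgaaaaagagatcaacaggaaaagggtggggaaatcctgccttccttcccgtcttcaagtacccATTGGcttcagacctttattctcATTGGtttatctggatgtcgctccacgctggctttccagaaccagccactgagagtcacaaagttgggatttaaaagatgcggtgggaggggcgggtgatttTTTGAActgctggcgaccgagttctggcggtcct
Cdk1: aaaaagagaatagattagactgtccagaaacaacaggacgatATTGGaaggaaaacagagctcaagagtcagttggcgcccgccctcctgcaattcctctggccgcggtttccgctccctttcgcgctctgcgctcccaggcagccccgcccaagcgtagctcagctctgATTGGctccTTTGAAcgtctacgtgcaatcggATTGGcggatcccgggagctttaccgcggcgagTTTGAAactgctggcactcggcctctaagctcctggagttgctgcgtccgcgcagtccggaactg
Kif23: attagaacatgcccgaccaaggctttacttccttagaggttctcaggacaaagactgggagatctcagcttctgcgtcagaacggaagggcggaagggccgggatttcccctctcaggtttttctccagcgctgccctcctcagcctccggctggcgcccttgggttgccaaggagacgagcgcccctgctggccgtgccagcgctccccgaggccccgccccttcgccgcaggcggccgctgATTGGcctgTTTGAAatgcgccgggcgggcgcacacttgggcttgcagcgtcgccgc
Bub1b: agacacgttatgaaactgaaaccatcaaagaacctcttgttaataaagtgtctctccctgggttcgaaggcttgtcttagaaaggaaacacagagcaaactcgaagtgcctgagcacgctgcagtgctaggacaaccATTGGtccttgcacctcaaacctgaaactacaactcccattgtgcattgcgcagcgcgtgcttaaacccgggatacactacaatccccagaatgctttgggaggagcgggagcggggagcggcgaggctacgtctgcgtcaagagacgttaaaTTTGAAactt

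The Top2a window lies at chr11:99024140-99024439 on the minus strand and that of Cdk1 at chr10:69352863-69353162 on the minus strand. Kif23 was read at chr9:61946750-61947049 (minus strand), Cenpa at chr5:30666636-30666935 (plus strand) and Bub1b at chr2:118597961-118598260 (plus strand). Top2a, which encodes the enzyme that untangles sister DNA, had 6 CCAAT boxes at 227 to 58 bases before the start. One of its CHR hexamers begins 179 bases before the start, between these boxes, and the other 23 bases before it, past all of them. Cdk1 had 3 CCAAT boxes and 2 CHR hexamers, at 71 and 15 bases before the start. In Cenpa, Kif23 and Bub1b the CHR hexamer began 16, 2 and 40 bases after the start. Of the printed windows, only that of Kif23 was not matched to an annotated transcript for its strand.

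LPS at 12 h lowered the whole module. In WT cells all 40 genes were called lower with LPS than with PBS, with a median log2 change of -2.76 (from -3.50 to -1.50), where the median of all genes tested was -0.35. The median member kept 13.8% of its PBS level (6.70% to 35.1%). In Vim-KO cells all 40 were called lower as well, with a median of -3.02 (from -3.92 to -1.75) against -0.23 for all genes, and a median of 11.7% of the PBS level (5.21% to 29.0%). Over all genes tested, 53.1% were called lower and 17.8% higher with LPS in WT cells, and 45.8% lower and 20.5% higher in Vim-KO cells. Summed over the 40 genes, TPM were 752 and 758 in WT cells with LPS against 4874 and 4773 in WT cells with PBS, and 630.4 and 616 in Vim-KO cells with LPS against 4955 and 4796 in Vim-KO cells with PBS. In bulk RNA, fewer dividing cells and less of these mRNAs per cell cannot be told apart.

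**Figure D1:**
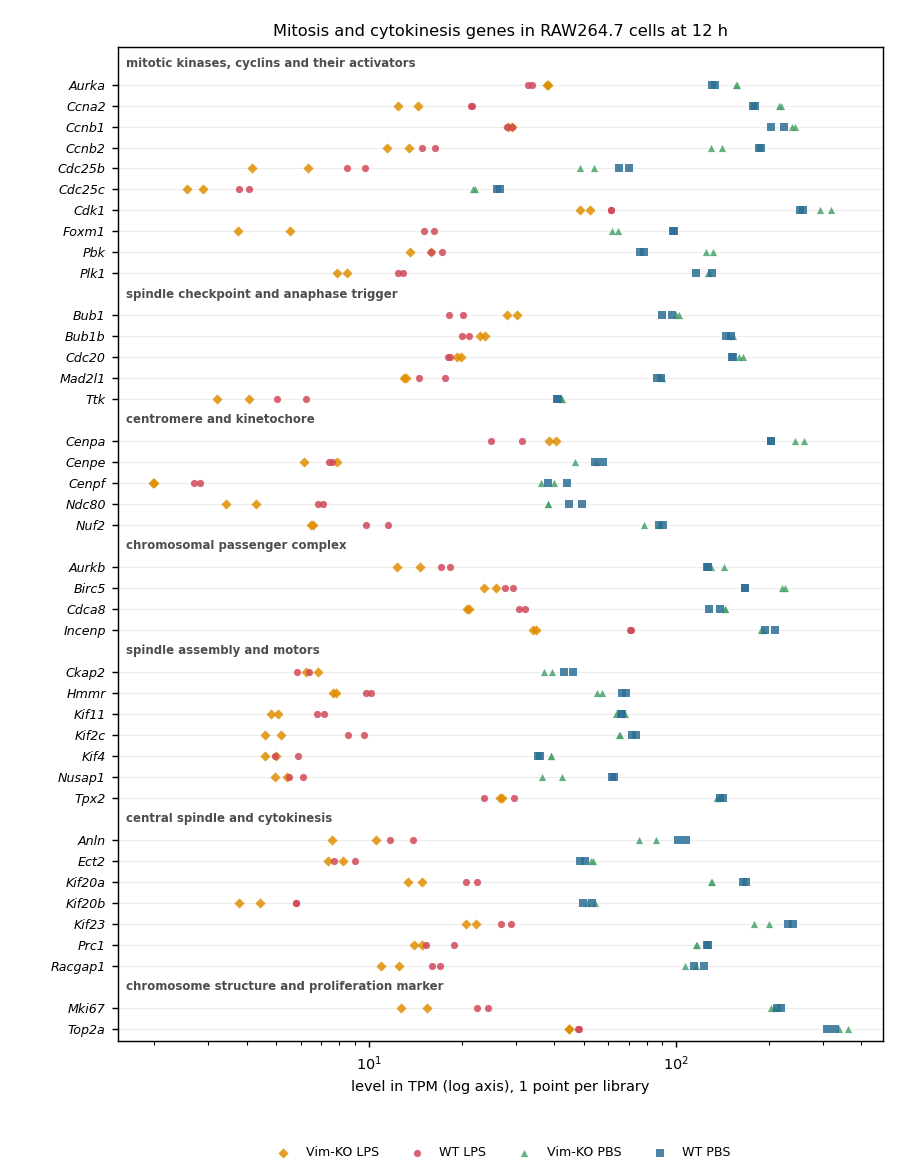
TPM on a log axis of the 40 genes (rows, by role) in RAW264.7 cells at 12 h, 1 point per library and 2 libraries per group. For all 40 genes the LPS libraries (diamonds, Vim-KO; circles, WT) lie to the left of the PBS libraries (triangles, Vim-KO; squares, WT) of the same genotype.

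Among the kinases and cyclins, Ccnb2, a cyclin partner of Cdk1, had the largest log2(TPM + 1) change of the module in WT cells. It stood at 14.9 and 16.4 TPM with LPS, against 186 and 188 TPM with PBS (log2 change -3.50 ± 0.0936 (SE), adjusted p = 5.91e-08). Ccna2, the cyclin of S phase and early mitosis, had the largest change on that scale in Vim-KO cells, at 14.4 and 12.4 TPM with LPS against 216 and 219 TPM with PBS (log2 change -3.92 ± 0.078 (SE), adjusted p = 1.72e-08). Plk1, the Polo-like kinase that acts at spindle poles and kinetochores, was at 8.47 and 7.88 TPM with LPS against 128 and 127 TPM with PBS in Vim-KO cells (log2 change -3.81 ± 0.0798 (SE), adjusted p = 2.16e-08). In each of these the groups were far apart. Cdk1 itself kept more of its mRNA, at 61.5 and 61.4 TPM with LPS against 253 and 258 TPM with PBS in WT cells (log2 change -2.04 ± 0.0667 (SE), adjusted p = 1.34e-07). Aurka, the Aurora kinase of the spindle poles, changed by -1.95 ± 0.058 in WT cells (adjusted p = 9.73e-08) and by -2.01 ± 0.058 in Vim-KO cells (adjusted p = 7.06e-08), among the 3 smallest changes in both genotypes.

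Of the centromere genes, Cenpf, a kinetochore protein, was at 2.70 and 2.81 TPM with LPS against 44.1 and 38.3 TPM with PBS in WT cells (log2 change -3.49 ± 0.105 (SE), adjusted p = 1.02e-07). In Vim-KO cells it fell to 1.98 and 1.99 TPM with LPS, the lowest level of any member in any RAW264.7 library, against 39.97 and 36.3 TPM with PBS. By TPM without the added 1, Cenpf fell furthest of all members, to 6.70% of PBS in WT cells, against 8.38% for Ccnb2, and to 5.21% in Vim-KO cells, against 6.18% for Ccna2. Nusap1, which bundles spindle microtubules, stood at 5.51 and 6.11 TPM with LPS against 62.9 and 61.7 TPM with PBS in WT cells (log2 change -3.22 ± 0.102 (SE), adjusted p = 1.19e-07). Tpx2, the activator of Aurora A and a gene of the same role set, was at 27.2 and 26.8 TPM with LPS against 136 and 136 TPM with PBS in Vim-KO cells (log2 change -2.29 ± 0.0982 (SE), adjusted p = 4.99e-07). Tpx2 thus kept more of its PBS level than most members. The proliferation marker Mki67 stood at 15.5 and 12.7 TPM with LPS against 208 and 202 TPM with PBS in Vim-KO cells (log2 change -3.78 ± 0.094 (SE), adjusted p = 4.97e-08).

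At the other end, Incenp, the scaffold of the chromosomal passenger complex, changed least in WT cells, with 71.4 and 70.7 TPM with LPS against 210.0 and 195 TPM with PBS (log2 change -1.50 ± 0.0611 (SE), adjusted p = 3.93e-07). Bub1, a kinase of the spindle checkpoint, changed least in Vim-KO cells, with 28.2 and 30.3 TPM with LPS against 99.7 and 102 TPM with PBS (log2 change -1.75 ± 0.0798 (SE), adjusted p = 6.88e-07). Both were still well below PBS, and no library of one treatment reached those of the other for any of the 40 genes in either genotype, where 63.4% of all genes tested in WT cells and 54.9% in Vim-KO cells lay wholly below PBS. By role, the median log2 change in WT cells ran from -2.28 in the passenger complex to -2.93 in the pair Mki67 and Top2a, and in Vim-KO cells from -2.69 in the spindle checkpoint set to -3.36 in that pair.

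TPM are shares, and LPS lowered the median of all genes. Scaling the libraries to a common median ratio moved the genes tested by a median of -0.37 in WT cells (log2, as deposited minus scaled). In Vim-KO cells the median move was -0.25. The share of higher calls among all calls went to 51.3% from 25.2% in WT cells and to 50.4% from 31.0% in Vim-KO cells. On the scaled values all 40 members were still called lower in both genotypes, with medians of -2.39 in WT and -2.77 in Vim-KO cells. Of all 11115 genes tested, 3524 in WT and 3534 in Vim-KO cells were called lower on that scale.

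In the separate 24 h experiment the module was again lower with LPS. Of the 40 genes, 39 were called lower and none higher in LPS against PBS, and Cenpe did not pass, where 45.1% of all genes tested were called lower and 20.9% higher. The median log2 change was -1.16 (from -1.83 to -0.20), against -0.23 for all genes, and the median member stood at 43.8% of its PBS level (27.5% to 86.3%). Summed TPM of the module were 1511 and 1557 with LPS, against 3563 and 3379 with PBS. All 40 genes had both LPS libraries below both PBS libraries, which held for 55.3% of all genes tested. Scaling moved the genes tested by a median of -0.25 and the share of higher calls to 50.9% from 31.6%. It left 35 members called lower with a median of -0.91, where 3369 of all 11030 genes tested were called lower. Cdc25b, Bub1, Hmmr and Ckap2 were no longer called there.

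**Figure D2:**
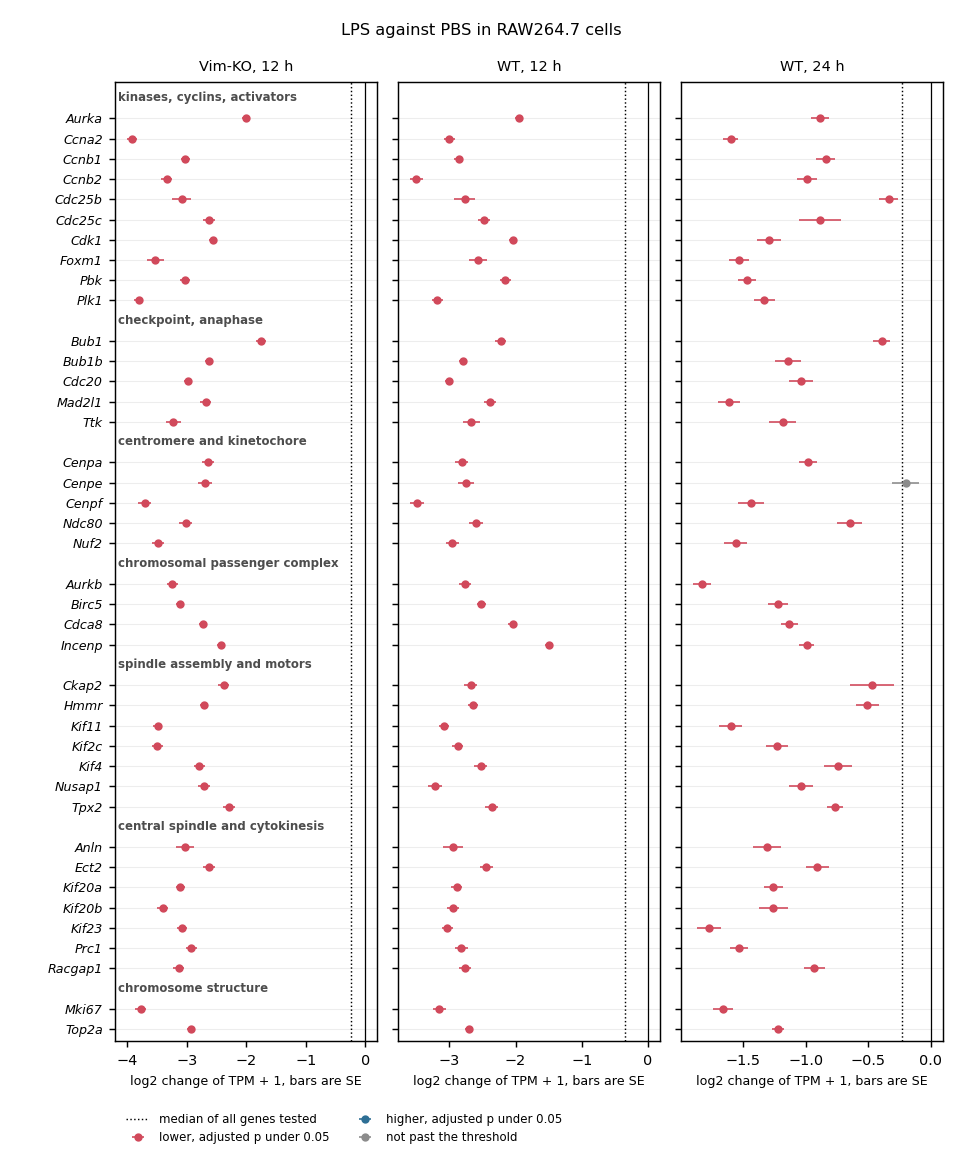
Log2 change of TPM + 1 with LPS against PBS for the 40 genes in Vim-KO cells at 12 h, WT cells at 12 h and WT cells at 24 h, with bars giving the SE (2 libraries per group) and a dotted line at the median of all genes tested. The points spread around medians of -3.02, -2.76 and -1.16, and at 24 h only Cenpe (grey) missed the threshold.

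Aurkb, the kinase of the chromosomal passenger complex, changed most at 24 h, with 33.9 and 32.7 TPM with LPS against 127 and 115 TPM with PBS (log2 change -1.83 ± 0.0744 (SE), adjusted p = 1.82e-06). Kif23, a motor of the centralspindlin complex that sets up cytokinesis, came next at 42.7 and 42.4 TPM with LPS against 155 and 141 TPM with PBS (log2 change -1.77 ± 0.0949 (SE), adjusted p = 5.96e-06). Mki67 stood at 52.2 and 47.6 TPM with LPS against 167 and 153 TPM with PBS (log2 change -1.66 ± 0.0786 (SE), adjusted p = 3.56e-06). All 3 had clearly separate groups. Top2a, one of the most abundant members, was at 103 and 104 TPM with LPS against 243 and 242 TPM with PBS (log2 change -1.22 ± 0.0509 (SE), adjusted p = 1.98e-06). Cenpa, the histone H3 variant that marks centromeres, was at 108 and 116 TPM with LPS against 219 and 226 TPM with PBS (log2 change -0.98 ± 0.0716 (SE), adjusted p = 2.52e-05).

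The smallest changes at 24 h are set beside those of the same genes at 12 h. Cenpe, a kinesin that links kinetochores to microtubules, was at 23.9 and 22.6 TPM with LPS against 28.8 and 25.1 TPM with PBS at 24 h (log2 change -0.20 ± 0.107 (SE), adjusted p = 0.134), and on scaled values its change was 0.046. At 12 h Cenpe changed by -2.75 ± 0.122 in WT cells (adjusted p = 6.02e-07). Cdc25b, a phosphatase that activates Cdk1, was at 34.3 and 36.2 TPM with LPS against 43.9 and 45.6 TPM with PBS at 24 h (log2 change -0.34 ± 0.0748 (SE), adjusted p = 0.00563), and changed by -2.77 at 12 h in WT cells. Bub1 was at 50.7 and 49.9 TPM with LPS against 67.95 and 64.9 TPM with PBS at 24 h (log2 change -0.39 ± 0.0693 (SE), adjusted p = 0.00185), and changed by -2.23 at 12 h. Ckap2, a microtubule-binding spindle protein, was called at 24 h only narrowly (log2 change -0.47 ± 0.176 (SE), adjusted p = 0.0483) and lost its call without any 1 of the 4 libraries.

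Across the 40 genes the LPS changes of WT cells at 12 h and at 24 h were weakly related (Pearson r 0.252, Spearman rho 0.371), while the PBS levels of the experiments were closely related (r 0.963 on log2 values). These are descriptions over genes that share their libraries. The time points come from separate experiments with separate RNA extraction dates, so time and experiment cannot be told apart, and no test was made between them.

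Adding CTM to LPS for 24 h brought a part of the module up slightly. Of the 40 genes, 20 were called higher and none lower in LPS plus CTM against LPS, where 16.1% of all genes tested were called higher and 9.45% lower. The median log2 change was 0.27 (from -0.19 to 0.56), against 0.07 for all genes, and the median member stood at 121% of its LPS level (88.6% to 149%). Summed TPM were 1836 and 1780 with LPS plus CTM, against 1511 and 1557 with LPS. Both LPS plus CTM libraries lay above both LPS libraries for 28 of 40 genes (70%), where 40.2% of all genes did so. The sizes are small beside the LPS change itself, and none of the 20 changes reached 1 on the log2 scale.

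By role, the genes called higher were 7 of 10 kinases, cyclins and activators, 2 of 5 checkpoint genes, 3 of 4 passenger complex genes, 2 of 7 spindle genes, 4 of 7 cytokinesis genes, both Mki67 and Top2a, and 0 of 5 centromere and kinetochore genes. No test was made between roles, and Nuf2, a kinetochore gene, had a log2 change of 0.28 ± 0.0929 (SE), adjusted p = 0.0644, as large as that of the called gene Ccnb1 (0.26). Pbk, a mitotic protein kinase, had the largest change, with 40.1 and 39.2 TPM with LPS plus CTM against 25.9 and 27.3 TPM with LPS (log2 change 0.56 ± 0.073 (SE), adjusted p = 0.00264). Bub1b, which encodes the checkpoint protein BubR1, was at 82.03 and 67.4 TPM with LPS plus CTM against 48.7 and 54.9 TPM with LPS (log2 change 0.52 ± 0.105 (SE), adjusted p = 0.0127). Kif2c, a kinesin that depolymerises microtubules at centromeres, was at 18.2 and 17.9 TPM with LPS plus CTM against 13.3 and 12.5 TPM with LPS (log2 change 0.46 ± 0.0906 (SE), adjusted p = 0.0117). In these 3 genes the groups did not overlap. Prc1, which bundles the central spindle, stood at 37.00 and 37.7 TPM with LPS plus CTM against 27.7 and 27.4 TPM with LPS (log2 change 0.42 ± 0.0704 (SE), adjusted p = 0.00605).

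**Figure D3:**
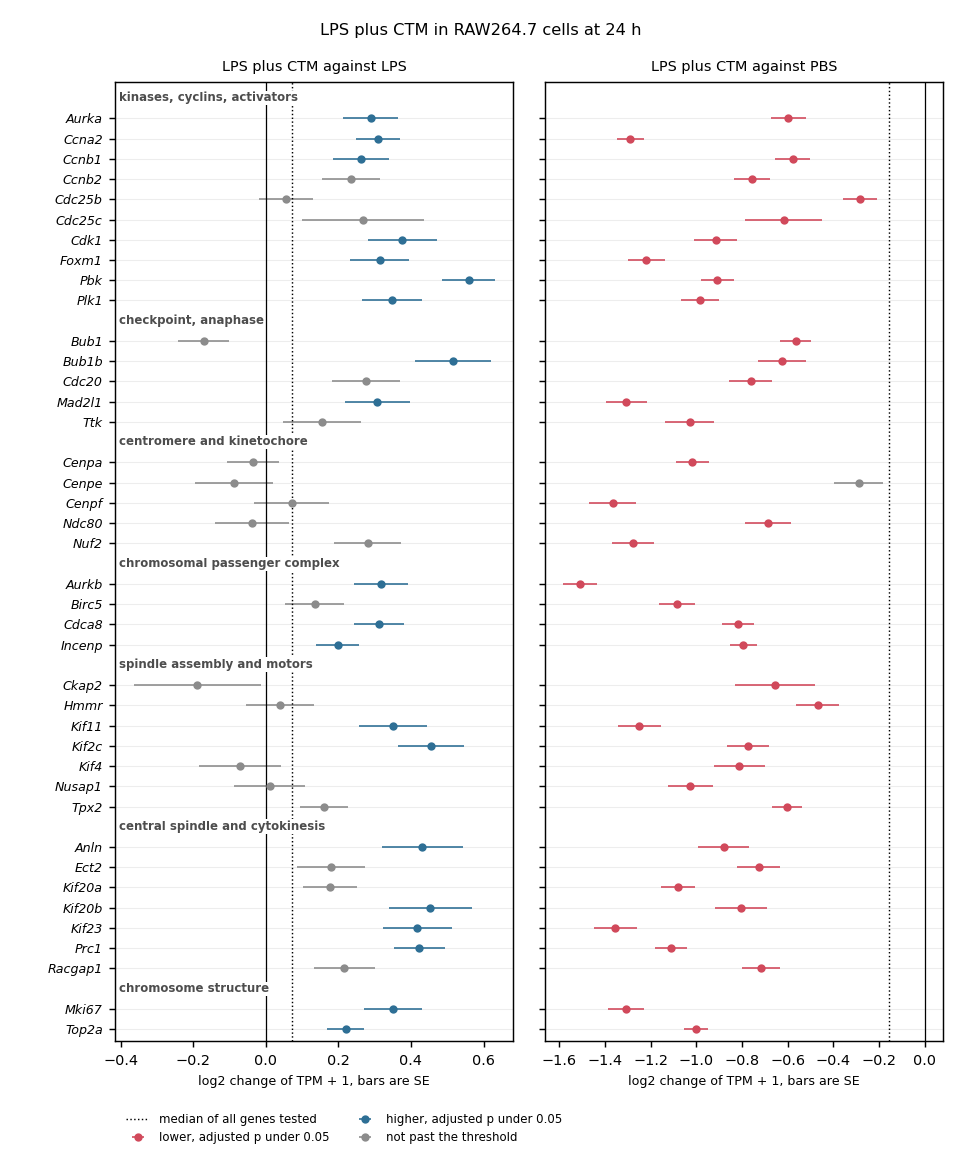
Log2 change of TPM + 1 at 24 h for LPS plus CTM against LPS (left) and against PBS (right), with bars giving the SE (2 libraries per group) and a dotted line at the median of all genes tested. On the left 20 genes passed as higher (blue), and on the right 39 passed as lower (red).

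Some members did not move up with CTM. Ckap2 was at 21.3 and 14.2 TPM with LPS plus CTM against 19.1 and 20.9 TPM with LPS (log2 change -0.19 ± 0.176 (SE), adjusted p = 0.465), so its 2 LPS plus CTM libraries lay on either side of the LPS libraries. Bub1 was at 45.7 and 43.4 TPM with LPS plus CTM against 50.7 and 49.9 TPM with LPS (log2 change -0.17 ± 0.0693 (SE), adjusted p = 0.112), the 1 gene of the module whose LPS plus CTM libraries both lay below LPS. Cenpe was at 23.2 and 20.5 TPM with LPS plus CTM against 23.9 and 22.6 TPM with LPS (log2 change -0.09 ± 0.107 (SE), adjusted p = 0.581). Cenpa likewise was at 104 and 116 TPM with LPS plus CTM against 108 and 116 TPM with LPS (log2 change -0.03 ± 0.0716 (SE), adjusted p = 0.752).

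The count of 20 rests on small differences. Scaling moved the genes tested by a median of 0.08 and took the share of higher calls over all genes to 45.3% from 63.1%. On scaled values Bub1 was called lower. The count there was 11, where 1272 of all 11030 genes tested were called higher and 1538 lower. Without LPS library 2 or 3 it was 8 or 9, and without LPS plus CTM library 2 or 3 it was 3 or 5. Pbk and Prc1 were the 2 genes called under each of 11 alternatives other than a minimum log2 change of 1.

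Compared with PBS, the cells with LPS plus CTM still had the module low. Of the 40 genes 39 were called lower and none higher, where 35.5% of all genes tested were called lower and 17.4% higher, with a median log2 change of -0.85 (from -1.51 to -0.28) against -0.16 for all genes. The median member stood at 54.2% of its PBS level (34.5% to 81.9%). Aurkb was at 41.5 and 41.97 TPM with LPS plus CTM against 127 and 115 TPM with PBS (log2 change -1.51 ± 0.0744 (SE), adjusted p = 8.17e-06), and Cenpf at 12.2 and 10.8 TPM against 30.6 and 32.05 TPM (log2 change -1.37 ± 0.103 (SE), adjusted p = 5.77e-05). Both were among the 3 largest changes, with Kif23 (-1.36). The smallest were those of Cdc25b (-0.28), Cenpe (-0.29, adjusted p = 0.0546) and Hmmr (-0.47), a spindle and hyaluronan-binding protein. Hmmr stood at 26.2 and 24.5 TPM with LPS plus CTM against 34.05 and 36.9 TPM with PBS. Scaling moved the genes tested by a median of -0.17 and the share of higher calls to 53.3% from 32.9%. It left 36 members called lower with a median of -0.68, where 2512 of all 11030 genes tested were called lower. The comparisons at 24 h share their LPS or PBS libraries.

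The most abundant member of each role shows the 3 groups of the 24 h experiment side by side. Cdk1 was at 125 and 115 TPM with LPS plus CTM, at 86.8 and 97.6 TPM with LPS alone and at 245 and 210.3 TPM with PBS. Bub1b stood at 117 and 113 TPM with PBS, and Top2a at 122 and 120.0 TPM with LPS plus CTM, beside the LPS values above. For Cdk1, Bub1b and Top2a the LPS plus CTM libraries lay between those of LPS and of PBS. Incenp was at 85.9 and 89.6 TPM with LPS plus CTM, at 76.7 and 75.9 TPM with LPS alone and at 156 and 149.6 TPM with PBS. Tpx2 was at 53.8 and 54.6 TPM with LPS plus CTM, at 48.4 and 48.3 TPM with LPS alone and at 85.1 and 80.8 TPM with PBS. The change of LPS plus CTM against LPS was 0.20 ± 0.0594 (SE), adjusted p = 0.0476 for Incenp and 0.16 ± 0.0653 (SE), adjusted p = 0.113 for Tpx2. Kif23 was at 52.5 and 62.2 TPM with LPS plus CTM (log2 change 0.42 ± 0.0949 (SE), adjusted p = 0.0187 against LPS).

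**Figure D4:**
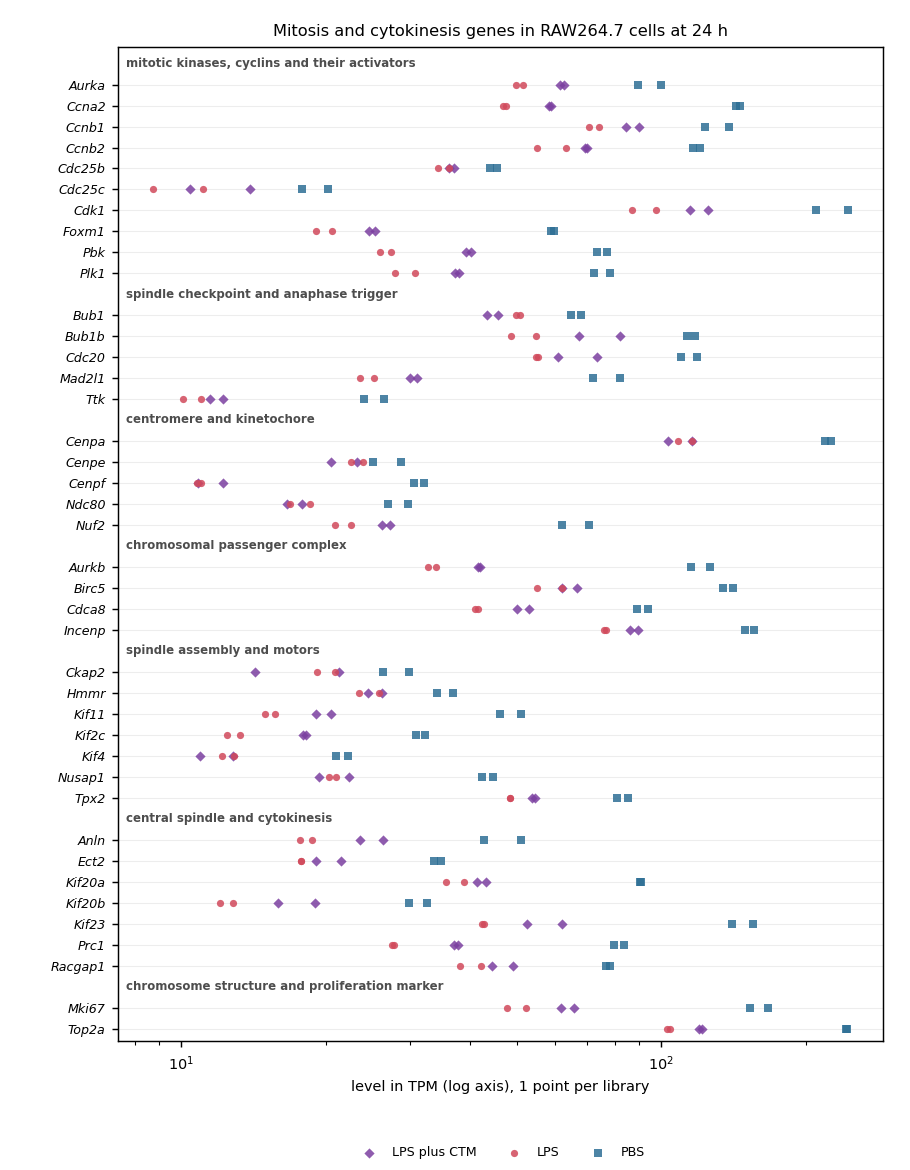
TPM on a log axis of the 40 genes (rows, by role) in RAW264.7 cells at 24 h, 1 point per library and 2 libraries per group. The PBS libraries (squares) lie to the right of the LPS (circles) and LPS plus CTM (diamonds) libraries for all 40 genes, and the LPS plus CTM libraries lie to the right of LPS for 28 of them. Among all genes tested, 55.3% lay wholly below PBS with LPS and 52.5% with LPS plus CTM. With LPS plus CTM 40.2% lay wholly above LPS.

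Between the genotypes 12 members differed with PBS and 28 with LPS. With PBS, 6 of 40 genes were called higher and 6 lower in Vim-KO against WT cells, where 17.7% of all genes tested were called higher and 25.4% lower. The median log2 change was -0.03 (from -0.65 to 0.72). Pbk was at 124 and 131 TPM in Vim-KO cells against 78.2 and 76.1 TPM in WT cells (log2 change 0.72 ± 0.0898 (SE), adjusted p = 0.000466). Birc5, which encodes the passenger protein survivin, was at 225 and 221 TPM in Vim-KO cells against 168 and 167 TPM in WT cells (log2 change 0.41 ± 0.0682 (SE), adjusted p = 0.00206). Both were higher without overlap, and Cenpa (0.31), Ccna2 (0.28), Cdk1 (0.25) and Aurka (0.24) were the other 4 called higher. Both Vim-KO libraries lay above both WT libraries for 16 of 40 genes (40%) and below them for 16 (40%). For all genes tested these shares were close to that, at 34.1% and 43.3%.

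In the lower direction with PBS, Nusap1 was at 42.3 and 36.4 TPM in Vim-KO cells against 62.9 and 61.7 TPM in WT cells (log2 change -0.65 ± 0.102 (SE), adjusted p = 0.00152). Foxm1, the transcription factor of late cell cycle genes, was at 61.7 and 64.8 TPM in Vim-KO cells against 97.3 and 98.04 TPM in WT cells (log2 change -0.62 ± 0.139 (SE), adjusted p = 0.00862). Ccnb2 (-0.46), Kif20a (-0.36), a cytokinesis motor, Kif23 (-0.31) and Hmmr (-0.26) were the other 4. Without any 1 of the 4 libraries the calls were 2 or 3 higher and 3 or 4 lower, while a fit on those 4 libraries alone called 12 lower. Birc5, Ccnb2, Nusap1 and Pbk were called under each of 11 alternatives other than a minimum log2 change of 1.

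With LPS, 25 of the 40 genes were called lower and 3 higher in Vim-KO against WT cells, where 20.6% of all genes tested were called lower and 24.1% higher. The median log2 change was -0.33 (from -1.59 to 0.58), against 0.04 for all genes, and the median member stood at 77.1% of its WT level (29.5% to 152%). Both Vim-KO libraries lay below both WT libraries for 28 of 40 genes (70%), where 31.4% of all genes did so. On scaled values 26 were called lower and 2 higher, where 2843 and 2271 of all 11115 genes tested were. Without any 1 of the 4 LPS libraries 19 to 23 were called lower, and in a fit on those 4 libraries alone 14 were.

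Foxm1 led the lower calls, with 5.53 and 3.73 TPM in Vim-KO cells with LPS against 15.1 and 16.3 TPM in WT cells with LPS (log2 change -1.59 ± 0.139 (SE), adjusted p = 7.56e-05). Incenp was at 34.9 and 34.2 TPM in Vim-KO cells against 71.4 and 70.7 TPM in WT cells (log2 change -1.02 ± 0.0611 (SE), adjusted p = 1.07e-05). Kif2c was at 5.16 and 4.57 TPM in Vim-KO cells against 8.56 and 9.62 TPM in WT cells (log2 change -0.78 ± 0.0893 (SE), adjusted p = 0.000291). Each of these had its highest Vim-KO library below its lowest WT library. By role, 7 of 10 kinases, cyclins and activators, 2 of 5 checkpoint genes, 3 of 5 centromere genes, 4 of 4 passenger complex genes, 3 of 7 spindle genes, 5 of 7 cytokinesis genes and Mki67 were called lower.

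Of the 40 genes, 8 had a positive and 32 a negative change, and 3 of the 8 were called higher. Bub1 was at 28.2 and 30.3 TPM in Vim-KO cells with LPS against 20.2 and 18.2 TPM in WT cells with LPS (log2 change 0.58 ± 0.0798 (SE), adjusted p = 0.000768). Cenpa was at 40.5 and 38.5 TPM in Vim-KO cells against 31.5 and 24.97 TPM in WT cells (log2 change 0.48 ± 0.103 (SE), adjusted p = 0.00694). Aurka was at 37.9 and 38.2 TPM in Vim-KO cells against 33.99 and 32.8 TPM in WT cells (log2 change 0.18 ± 0.058 (SE), adjusted p = 0.0338). Bub1 and Cenpa kept their call on scaled values and Aurka did not (0.11 there). Cdc20, the trigger of anaphase, did not pass, at 19.98 and 19.3 TPM in Vim-KO cells against 18.3 and 18.04 TPM in WT cells (log2 change 0.11 ± 0.061 (SE), adjusted p = 0.191).

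**Figure D5:**
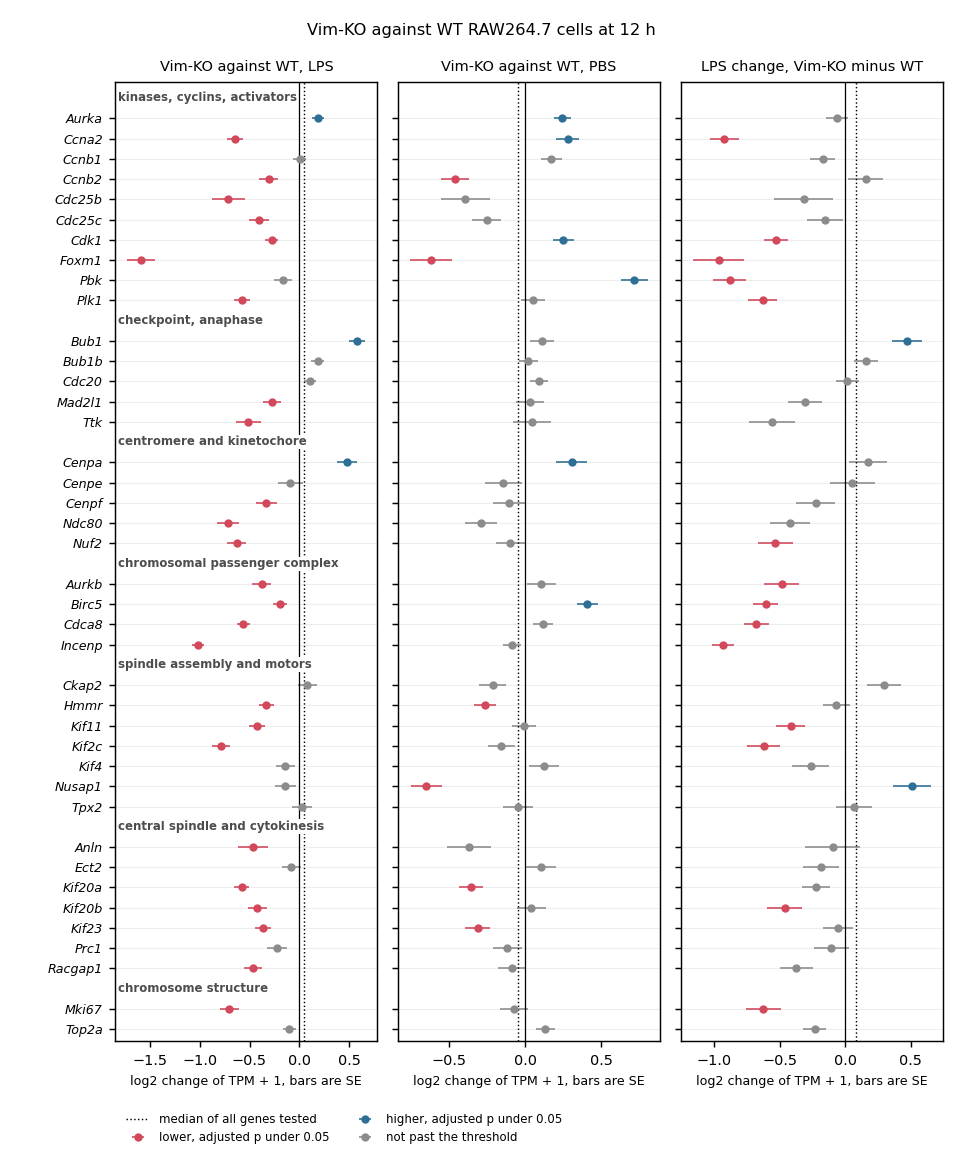
Log2 change of TPM + 1 at 12 h for Vim-KO against WT cells with LPS (left) and with PBS (middle), and the difference of the LPS change, Vim-KO less WT (right), with bars giving the SE (2 libraries per group) and a dotted line at the median of all genes tested. With LPS 25 genes passed as lower (red) and 3 as higher (blue), and on the right 14 passed as negative and 2 as positive.

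Whether LPS acted to the same extent in both genotypes was tested as an interaction, in which the log2 change with LPS in WT cells is subtracted from that in Vim-KO cells. It was called negative, meaning a larger fall in Vim-KO cells, for 14 of 40 genes and positive for 2, where 6.96% of all genes tested were called negative and 13.7% positive. The median over the module was -0.25 (from -0.97 to 0.51), against 0.09 for all genes. All 4 genes of the chromosomal passenger complex were among the 14, with interactions of -0.93 ± 0.0864 for Incenp (adjusted p = 0.000286), -0.68 ± 0.0944 for Cdca8, which encodes borealin (adjusted p = 0.00226), -0.61 ± 0.0965 for Birc5 (adjusted p = 0.00441) and -0.48 ± 0.134 for Aurkb (adjusted p = 0.0394). The Aurkb call held in 4 of 14 alternatives, and those of the other 3 in all 14. This complex corrects faulty attachments of chromosomes to the spindle. For Incenp the LPS change was -2.43 in Vim-KO cells and -1.50 in WT cells, and PBS levels were 191 and 189 TPM in Vim-KO cells against 210.0 and 195 TPM in WT cells.

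Of the kinases and cyclins 5 of 10 were called negative. These were Foxm1 (-0.97 ± 0.197 (SE), adjusted p = 0.0128), Ccna2 (-0.92 ± 0.11 (SE), adjusted p = 0.00105), Pbk (-0.88 ± 0.127 (SE), adjusted p = 0.00271), Plk1 (-0.63 ± 0.113 (SE), adjusted p = 0.00735) and Cdk1 (-0.53 ± 0.0943 (SE), adjusted p = 0.00723). Ccna2 and Pbk had been higher in Vim-KO than in WT cells with PBS, and with LPS Ccna2 was lower at 14.4 and 12.4 TPM in Vim-KO cells against 21.6 and 21.4 TPM in WT cells. Pbk with LPS was at 13.6 and 15.9 TPM in Vim-KO cells against 17.3 and 15.9 TPM in WT cells, values that overlap. The other 5 were Mki67 (-0.63), the motors Kif2c (-0.62), Kif20b (-0.46) and Kif11 (-0.42), and the kinetochore gene Nuf2 (-0.53).

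The levels behind these interactions differed in kind. Cdk1 was at 48.6 and 52.5 TPM in Vim-KO cells with LPS against 61.5 and 61.4 TPM in WT cells with LPS, and at 317 and 292 TPM in Vim-KO cells with PBS against 253 and 258 TPM in WT cells with PBS. Birc5 with LPS was at 23.7 and 25.9 TPM in Vim-KO cells against 29.4 and 27.6 TPM in WT cells, beside its higher PBS level in Vim-KO cells. Both genes were called higher in Vim-KO cells with PBS and lower in them with LPS. Of 11 alternatives, the lower call with LPS held in 4 for Birc5 and 9 for Cdk1. The higher call with PBS held in 11 for Birc5 and 8 for Cdk1. Plk1 was at 8.47 and 7.88 TPM in Vim-KO cells with LPS against 12.5 and 12.9 TPM in WT cells with LPS, and its PBS levels were 128 and 127 TPM in Vim-KO cells against 130.1 and 116 TPM in WT cells. Cdca8 was at 20.8 and 21.2 TPM in Vim-KO cells with LPS against 30.7 and 32.2 TPM in WT cells with LPS, and Aurkb at 14.7 and 12.3 TPM in Vim-KO cells against 17.2 and 18.3 TPM in WT cells. With PBS the values were 144 and 144 TPM in Vim-KO cells against 128 and 138 TPM in WT cells for Cdca8, and 129 and 143 TPM in Vim-KO cells against 126 and 126 TPM in WT cells for Aurkb. Plk1, Cdca8 and Aurkb were not called with PBS.

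Mki67 was at 15.5 and 12.7 TPM in Vim-KO cells with LPS against 22.5 and 24.4 TPM in WT cells with LPS. Nuf2, a subunit of the Ndc80 complex that holds microtubules, was at 6.56 and 6.48 TPM in Vim-KO cells against 11.5 and 9.80 TPM in WT cells with LPS. Kif11, the motor that pushes spindle poles apart, was at 5.07 and 4.80 TPM in Vim-KO cells against 6.79 and 7.14 TPM in WT cells with LPS. Kif20b, a motor of late cytokinesis, was at 4.42 and 3.76 TPM in Vim-KO cells against 5.80 and 5.80 TPM in WT cells with LPS. In each of these 4 genes both Vim-KO libraries lay below both WT libraries. Nusap1, with the positive interaction, was at 5.41 and 4.94 TPM in Vim-KO cells against 5.51 and 6.11 TPM in WT cells with LPS.

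The 2 positive interactions were those of Bub1 (0.47 ± 0.113 (SE), adjusted p = 0.0234) and Nusap1 (0.51 ± 0.144 (SE), adjusted p = 0.0422). Scaling moved the genes tested by a median of 0.12 and the share of higher calls to 46.1% from 66.2%. On scaled values 19 members were called negative and none positive, with 0.35 for Bub1 (adjusted p = 0.081) and 0.39 for Nusap1 (adjusted p = 0.0654). Of all 11115 genes tested, 1276 were called negative and 1090 positive on scaled values. The count of 14 was 7 without WT PBS library 1 or Vim-KO PBS library 2, and 9 without WT PBS library 2 or Vim-KO PBS library 1. Birc5, Ccna2, Cdca8, Cdk1, Incenp, Pbk and Plk1 were called under each of 14 alternatives other than a minimum log2 change of 1.

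The genotypes also differed in cell type markers. Of the 10 macrophage markers 6 were called lower and 1 higher in Vim-KO against WT cells with LPS, and 8 lower with PBS. Over all genes tested, 20.6% were called lower and 24.1% higher with LPS, and 25.4% lower with PBS. On scaled values 7 markers were called lower and 1 higher with LPS, and 6 lower with PBS. Of all 11115 genes tested, 2843 were called lower and 2271 higher with LPS on that scale, and 2550 lower with PBS. The list summed to 13045 and 12252 TPM in Vim-KO cells with LPS against 14911 and 15793 TPM in WT cells with LPS, and to 9899 and 9953 TPM in Vim-KO cells with PBS against 18755 and 18578 TPM in WT cells with PBS. The list of 9 neutrophil markers summed to 13.6 and 13.7 TPM in Vim-KO cells with LPS against 911 and 895 TPM in WT cells with LPS, and to 0.850 and 0.383 TPM in Vim-KO cells with PBS against 0.761 and 1.62 TPM in WT cells with PBS. Nearly all of the sums with LPS was S100a8, a calcium-binding protein of myeloid cells, at 13.1 and 12.9 TPM in Vim-KO cells with LPS against 908 and 892 TPM in WT cells with LPS (log2 change -6.01 ± 0.215 (SE), adjusted p = 8.92e-07, with an interaction of -5.52 ± 0.304, adjusted p = 3.26e-05). S100a9 was at 2.77 TPM or less, Ly6g, Ngp, Ltf and Retnlg were listed at 0 in all 8 libraries of 12 h, and Camp, Elane and Mpo were at 0.751 TPM or less. The part of both lists in the differences of the module was not tested.

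Other genes of division moved with the module under LPS. Of 79 further mitosis genes 75 were tested, and 73 were called lower and 1 higher in both genotypes at 12 h (medians -2.33 in WT and -2.47 in Vim-KO cells), while 65 were lower and 1 higher at 24 h (median -0.95). Pimreg, a mitotic regulator, had the largest change in Vim-KO cells, at 3.21 and 3.31 TPM with LPS against 100.3 and 98.2 TPM with PBS (log2 change -4.56 ± 0.0805 (SE), adjusted p = 7.80e-09). Fbxo5, an inhibitor of the anaphase-promoting complex, had the largest at 24 h, at 5.52 and 4.67 TPM with LPS against 38.2 and 38.7 TPM with PBS (log2 change -2.70 ± 0.192 (SE), adjusted p = 2.25e-05). The 45 S phase genes were all called lower at 12 h, with medians of -1.54 in WT and -1.80 in Vim-KO cells, and 44 were at 24 h, with a median of -1.26. Beside these stand the medians of the 40 members, -2.76 in WT and -3.02 in Vim-KO cells at 12 h, and -1.16 at 24 h. In the same 3 comparisons 53.1%, 45.8% and 45.1% of all genes tested were called lower, with medians of -0.35, -0.23 and -0.23.

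With CTM the S phase list had 24 genes called higher and 1 lower against LPS (median 0.31), while 6 of the 75 further mitosis genes were higher and 2 lower (median 0.11), beside 16.1% and 9.45% of all genes. Cdc6, which loads the replicative helicase, was at 6.78 and 7.65 TPM with LPS plus CTM against 2.86 and 3.27 TPM with LPS (log2 change 1.02 ± 0.129 (SE), adjusted p = 0.00243). Fbxo5 was at 10.5 and 16.4 TPM with LPS plus CTM against 5.52 and 4.67 TPM with LPS (log2 change 1.22 ± 0.192 (SE), adjusted p = 0.00501). On scaled values the S phase counts were 15 higher and 2 lower, and those of the further mitosis genes 4 higher and 4 lower (median 0.031). Those of all 11030 genes tested were 1272 higher and 1538 lower. For the interaction at 12 h, 13 S phase genes were negative and 3 positive, and 12 further mitosis genes were negative and 3 positive. Of all genes tested, 6.96% were called negative and 13.7% positive. Subunits of the anaphase-promoting complex, which ends mitosis by marking proteins for destruction, had 10 of 15 called lower and 2 higher with LPS at 24 h. Over all genes tested, 45.1% were called lower and 20.9% higher. The median of the subunits was -0.38, against -0.23 for all genes. On scaled values 5 subunits were called lower and 3 higher, where 3369 and 3486 of all 11030 genes tested were.

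Among the 16 regulators of the DREAM and MuvB group, 9 were called lower with LPS at 24 h, and 15 in WT and 12 in Vim-KO cells at 12 h, where 45.1%, 53.1% and 45.8% of all genes were. On scaled values these counts were 9, 10 and 11. Those of all genes tested were 3369 of 11030 at 24 h, and 3524 (WT) and 3534 (Vim-KO) of 11115 at 12 h. Mybl2, which encodes B-Myb, was at 18.6 and 15.8 TPM with LPS against 66.2 and 59.00 TPM with PBS at 24 h (log2 change -1.81 ± 0.114 (SE), adjusted p = 1.26e-05). With LPS plus CTM it was at 30.6 and 34.7 TPM (log2 change 0.89 ± 0.114 (SE), adjusted p = 0.00247 against LPS). Rbl2, the p130 subunit of DREAM, had a positive interaction at 12 h (2.06 ± 0.166 (SE), adjusted p = 0.000148). It was at 18.3 and 17.01 TPM in Vim-KO cells with LPS against 20.7 and 18.7 TPM in Vim-KO cells with PBS, and at 6.18 and 7.91 TPM in WT cells with LPS against 35.7 and 36.4 TPM in WT cells with PBS. The WT cells with LPS had the lowest Rbl2 of the 4 groups.

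Inhibitors of the cell cycle kinases were mixed, with 5 of 11 tested called higher and 6 lower with LPS at 24 h. Of all genes tested, 20.9% were called higher and 45.1% lower. The log2 changes of the inhibitors ran from -2.56 to 4.83. At 24 h Cdkn1a, which encodes the inhibitor p21, was at 364 and 359 TPM in cells with LPS plus CTM. Cells given LPS alone had 588 and 575 TPM, and cells given PBS had 157 and 161 TPM. Its log2 change was 1.86 ± 0.0453 (SE), adjusted p = 1.72e-07 for LPS against PBS, and -0.69 ± 0.0453 (SE), adjusted p = 0.00037 for LPS plus CTM against LPS. At 12 h Cdkn1a was at 1550.1 and 1421 TPM in Vim-KO cells with LPS against 229 and 229 TPM in Vim-KO cells with PBS, and at 498 and 566 TPM in WT cells with LPS against 382 and 378 TPM in WT cells with PBS. The Vim-KO cells with LPS had by far the most Cdkn1a mRNA, and the interaction was 2.21 ± 0.105 (SE), adjusted p = 1.92e-05. Gadd45a, a stress-induced inhibitor of Cdk1, had an interaction of -1.78 ± 0.199 (SE), adjusted p = 0.000733, at 9.42 and 9.16 TPM in Vim-KO cells with LPS against 106 and 93.9 TPM in WT cells with LPS. Gadd45a mRNA rose with LPS in both genotypes at 12 h, with log2 changes of 4.74 in WT cells and 2.96 in Vim-KO cells. These were the largest rises of the 11 inhibitors tested. The part of these inhibitors in the change of the module was not tested.

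In liver, 3 members were listed, each at 1.75 TPM or less in all 7 libraries. All genes listed for liver differ by 2-fold or more between WT LPS and WT PBS, so which members are listed says nothing of the module. Cenpa was at 0.36 TPM in TG2-KO liver with LPS against 1.10 TPM in TG2-KO liver with PBS, and at 0.51 TPM in WT liver with LPS against 1.75 TPM in WT liver with PBS. Tpx2 was at 0.49 TPM in TG2-KO liver with LPS against 0.11 TPM in TG2-KO liver with PBS, and at 1.28 TPM in WT liver with LPS against 0.18 TPM in WT liver with PBS. Cenpa was thus lower and Tpx2 higher with LPS in both genotypes. Bub1b was at 0.05 TPM in TG2-KO liver with LPS against 0.14 TPM with PBS, and at 0.05 TPM in WT liver with LPS against 0.37 TPM with PBS.

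With LPS plus CTM in WT liver, Bub1b was at 0.12 TPM, Cenpa at 0.19 TPM and Tpx2 at 0.68 TPM, and with LPS after macrophage depletion they were at 0.27, 0.54 and 0.33 TPM, against 0.23, 0.38 and 1.11 TPM with LPS and macrophages kept. With 1 library per group there is no test and no replicate check. None of the 3 genes was at least 2-fold apart on the scale of log2(TPM + 1) in any of 6 comparisons. That fold was reached by 66.9% of the listed genes for LPS against PBS in WT liver, 31.9% for LPS against PBS in TG2-KO liver, 1.59% for LPS plus CTM against LPS, 8.83% for depleted against kept macrophages, 7.7% for TG2-KO against WT with PBS and 6.3% for TG2-KO against WT with LPS. RNA was extracted on 3 dates, with TG2-KO liver on a date of its own, so genotype and date cannot be told apart. Liver Tgm2, the gene deleted in TG2-KO mice, was at 15.5 TPM (LPS) and 0.74 TPM (PBS) in TG2-KO liver, against 35.7 to 429 TPM in the WT livers.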

How the data were processed

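The expression of 40 genes in 21 mouse libraries was taken from TPM values that the authors deposited, and the submitters' processing notes name Salmon, mm10 and GRCm38, with versions and annotation not given in the sources used here. The mRNA kit kept strand, per the labels' protocols. Deposited TPM summed to 993386.5 to 999190.5 per RAW264.7 library and to 153179.8 to 336332.5 per liver library. Groups follow the labels. At 24 h the LPS and LPS plus CTM values carry the numbers 2 and 3 where the labels say 1 and 2, so they were assigned to a group only.

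RAW264.7 genes averaging 1 TPM or more within an experiment entered limma 3.58.1 (R 4.3.3) as log2(TPM + 1). All groups of an experiment shared 1 model with a trend of variance on level, and p-values were adjusted after Benjamini and Hochberg over all genes tested. The threshold was 0.05. All 40 members passed the filter in both experiments. The model was also run on simulated data whose noise was set from the spread between these same libraries. Such a run cannot tell if that spread is technical. Summaries used numpy 2.4.6 and pandas 2.3.3, and figures matplotlib 3.10.9. Promoters are RefSeq windows, and 19 of the 32 were matched to annotated transcripts for their strand.

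The members, the other gene lists and the tests were chosen with earlier results of these data known. Per-library values are given by a rule. It takes the most abundant member of each role, the 3 largest and 3 smallest changes per comparison, members called against the rest, members with a called interaction, listed liver members, up to 4 genes of each other list, and Cdkn1a. Cdc20 and Prc1 were named after their values were seen. The settings varied were the pseudocount (0.1), the filter (none, or 5 TPM), median-of-ratios scaling, no trend, the compared groups only, a replicate block, a minimum log2 change of 1 and leaving out each library.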

Additional observations from a re-analysis of the deposited data

Results flagged for a closer look

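For 16 members the LPS change at 12 h differed between Vim-KO and WT cells in the test of that difference (limma, log2 change with LPS, Vim-KO less WT). It was negative for Foxm1 (-0.97), Incenp (-0.93), Ccna2 (-0.92), Pbk (-0.88), Cdca8 (-0.68), Plk1 (-0.63), Mki67 (-0.63), Kif2c (-0.62), Birc5 (-0.61), Nuf2 (-0.53), Cdk1 (-0.53), Aurkb (-0.48), Kif20b (-0.46) and Kif11 (-0.42). It was positive for Bub1 (0.47) and Nusap1 (0.51). No group holds the 4 libraries that a search for single outlying libraries needs.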

How the results depend on the processing

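With 2 libraries per group, leaving 1 out assumes that the lone library varies like the other groups. The LPS calls at 12 h were 40 of 40 lower in both genotypes under every alternative run. Leaving out 1 library at a time left 38 lower for LPS at 24 h, 3 to 9 higher for LPS plus CTM against LPS, 36 to 38 lower for LPS plus CTM against PBS, 2 to 3 higher and 3 to 4 lower for Vim-KO against WT with PBS, 2 higher and 19 to 23 lower with LPS, and 0 to 2 positive and 7 to 17 negative interactions. For LPS plus CTM against LPS the 20 higher calls became 11 without a filter, with scaling (and 1 lower) and without the trend. A minimum log2 change of 1 left 24 lower for LPS at 24 h, 0 higher for LPS plus CTM against LPS, 16 lower for LPS plus CTM against PBS, 0 and 0 for Vim-KO against WT with PBS, 0 higher and 2 lower with LPS, and 0 interactions of either sign. A fit on the compared groups alone gave 12 lower for Vim-KO against WT with PBS and 14 with LPS. The 2 positive interactions became 1 with a pseudocount of 0.1 or no filter and 0 with scaling. In scaled values Cenpe at 24 h with LPS reversed to 0.046, and Ckap2 for LPS plus CTM against LPS ran from -0.46 to 0.085 when 1 library was left out, reversing without LPS plus CTM library 3, neither being called. In liver a pseudocount of 0.1 put 3 members at least 2-fold apart for LPS in WT, 2 for LPS in TG2-KO, and 1 each for LPS plus CTM, depletion and TG2-KO against WT with LPS. The 3 for LPS in WT follow from the listing, as all listed genes differ by 2-fold or more there. The other liver counts stand without the share over all listed genes at that setting. The cause of the other differences was not tested.

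The shared replicate numbers give only 2 pairs, and nothing in the labels ties them to a culture or day. Number 1 minus number 2 differences correlated at -0.031 at 24 h and at -0.22 to 0.098 at 12 h. With a replicate block LPS plus CTM against LPS had 10 higher calls and the interaction 1 positive call, and no other count moved by over 1.5 times.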
